A study of Saccharomyces cerevisiae with 12 samples.

Results

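Yeast cells lacking Ups1 and kept in tunicamycin were set against untreated wild-type cells, to see which functions of the mutant stood at the wild-type level after the drug and which did not. The comparison takes 6 of the 12 RNA libraries of the study, 3 of tunicamycin-treated ups1Δ cells and 3 of untreated wild-type cells, chosen by the labels for genotype and treatment. All cultures were S288c-based *Saccharomyces cerevisiae* in log phase in synthetic complete glucose medium at 30 °C, and each group had biological triplicates. The treated ups1Δ cultures (labelled delta_ups1) received 1 μg/ml tunicamycin for 3 h, and the wild-type cultures (labelled WT) received none. The 3 untreated ups1Δ libraries are given beside them to show where each gene stood before the drug, and the 3 libraries of treated wild-type cells are given as levels only.

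Ups1 carries phosphatidic acid across the mitochondrial intermembrane space, together with Mdm35, to the inner membrane, where cardiolipin is made from it. Tunicamycin blocks the first step of the lipid-linked sugar chain used for N-glycosylation, so that unfolded glycoproteins build up in the endoplasmic reticulum (ER). The sensor Ire1 then splices the *HAC1* mRNA, and Hac1 switches on the genes of the unfolded protein response (UPR). In wild-type cells such ER stress also represses the genes for ribosomes. The study asked how the drug bears on the growth and gene expression of ups1Δ cells.

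Of 5707 genes with enough counts to test, 3585 (62.8%) differed between treated ups1Δ and untreated wild-type cells by edgeR's quasi-likelihood test at an adjusted p under 0.05. Of all genes tested, 32.7% were higher and 30.1% lower in the treated mutant. When libraries were scaled by their totals alone, the median of all genes moved from 0.02 to 0.22 and the calls became 2801 higher and 1071 lower, so counts under that scaling are given where the balance of a list depended on it. A log2 fold change of 1 or more in size was reached by 685 genes (12.0%), with 440 higher (7.71%) and 245 lower (4.29%). The 3 libraries of one group did not overlap those of the other in 68.5% of genes. A gene was taken to stand at the wild-type level where it was not called and the 95% interval of its log2 fold change lay within 0.5 of 0, which held for 1702 genes (29.8%). A further 800 genes (14.0%) were called but had an interval inside the same limits, so 43.8% of genes lay within 0.5 of wild type, called or not. The remaining 420 genes (7.36%) could be placed in no class. With so many genes called, each list of genes below is read against these shares. The median of all genes was 0.02, and each list median is given on this scale.

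The genotypes differ in more than *UPS1*, since the wild-type libraries express the a-specific mating genes and have no counts of *LYS2* and *MET17*, and the ups1Δ libraries express the alpha-specific genes and both of those markers. Genotype, mating type, markers and, in the main comparison, tunicamycin therefore change together and cannot be told apart. In the untreated ups1Δ group, the library of replicate 3 stood apart, with an SD of 0.386 for its log2 differences from the other 2 libraries against 0.204 to 0.276 in the other libraries of the 3 groups compared, and list values that moved by about 1.5 times or more without it are given both ways. It takes no part in the main comparison.

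*UPS1* (YLR193C, chromosome XII) was at 41.0, 47.3 and 46.3 CPM (counts scaled to library size by TMM, edgeR's trimmed mean of M-values) in wild-type cells. It had 0 counts in 5 of the 6 ups1Δ libraries and 2 counts in the remaining one, a treated library. Taking 3 counts per library as the limit of detection, it was at least 82.2-fold lower in the treated mutant.

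The promoters of 3 genes called in the main comparison hold matches to DNA elements known from their groups. For each, the bases from 250 to 101 before the start codon are printed 5′ to 3′ on the gene's strand, from the RefSeq R64 assembly that sacCer3 represents. Within its list each was the called gene with the highest mean CPM over both groups. *KAR2*, a UPR target, lies on the plus strand (chrX:381077-381226), with the UPR element core CAGCGTG in capitals. *FIT3*, an iron uptake gene, lies on the minus strand (chrXV:1061156-1061305), with the core site of the iron regulator Aft1, TGCACCC, in capitals as its reverse complement. *NOP1*, a ribosome assembly gene, lies on the plus strand (chrIV:427114-427263), with the PAC core GATGAG, an element found before ribosome assembly genes, in capitals as its reverse complement.
KAR2: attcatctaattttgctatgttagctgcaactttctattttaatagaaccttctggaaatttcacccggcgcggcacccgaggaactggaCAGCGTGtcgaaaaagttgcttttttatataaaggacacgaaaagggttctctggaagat
FIT3: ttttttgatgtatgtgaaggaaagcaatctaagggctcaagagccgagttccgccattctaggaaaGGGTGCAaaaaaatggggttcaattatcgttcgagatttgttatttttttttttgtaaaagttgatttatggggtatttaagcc
NOP1: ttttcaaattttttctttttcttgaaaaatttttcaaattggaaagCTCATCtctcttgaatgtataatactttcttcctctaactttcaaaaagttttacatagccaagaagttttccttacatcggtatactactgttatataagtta

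Both strands from 250 bases before to 50 bases after the start codon were searched in 6001 protein-coding genes, with overlaps allowed. CAGCGTG was in 1.17% of these windows, TGCACCC in 1.30%, GATGAG in 20.4% and the pleiotropic drug resistance element TCCGCGGA in 0.217%. In the lists used below, GATGAG was in 107 of the 118 windows of ribosome assembly genes, TGCACCC in 12 of the 21 of iron uptake genes, CAGCGTG in 2 of the 12 of UPR targets and TCCGCGGA in 1 of the 13 of drug resistance genes. The window of *PDR5*, chosen by the same rule from the drug resistance list, held none of the 4 and is not printed. These matches describe the letters of the windows and were not tested as sites.

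The chaperones and folding enzymes of the ER went from below wild type to well above it. All 12 UPR targets tested were called higher in the treated mutant than in untreated wild-type cells, with a median of 1.17. In untreated ups1Δ cells 9 of them were called lower than in wild type (25.8% of all genes were), with a median of −0.42, and between treated and untreated ups1Δ cells all 12 were called higher (15.2% of all genes were), with a median of 1.68. These 3 comparisons share libraries and are not independent of each other. *KAR2*, the Hsp70 chaperone of the ER lumen whose promoter is printed above, was at 884, 921 and 946 CPM in wild-type cells, at 484, 501 and 466 CPM in untreated ups1Δ cells and at 3154, 3734 and 3712 CPM in treated ups1Δ cells. No library of one group overlapped another group, and its log2 fold change in the treated mutant against wild type was 1.94 ± 0.07 (SE, edgeR adjusted p = 2.2e-11). *ERO1*, the oxidase that drives disulfide formation, was at 182, 185 and 186 CPM in wild-type cells and at 562, 660 and 737 CPM in the treated mutant (1.82 ± 0.09). *ULI1*, a small gene known as a Hac1 target, was at most 4.43 CPM in the wild-type and 3.28 CPM in the untreated ups1Δ libraries and at 51.4, 70.6 and 65.5 CPM with tunicamycin (4.05 ± 0.25). The smallest of the 12 changes was 0.63, for *FPR2*, a prolyl isomerase of the ER that was named after its values were seen.

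**Figure D1:**
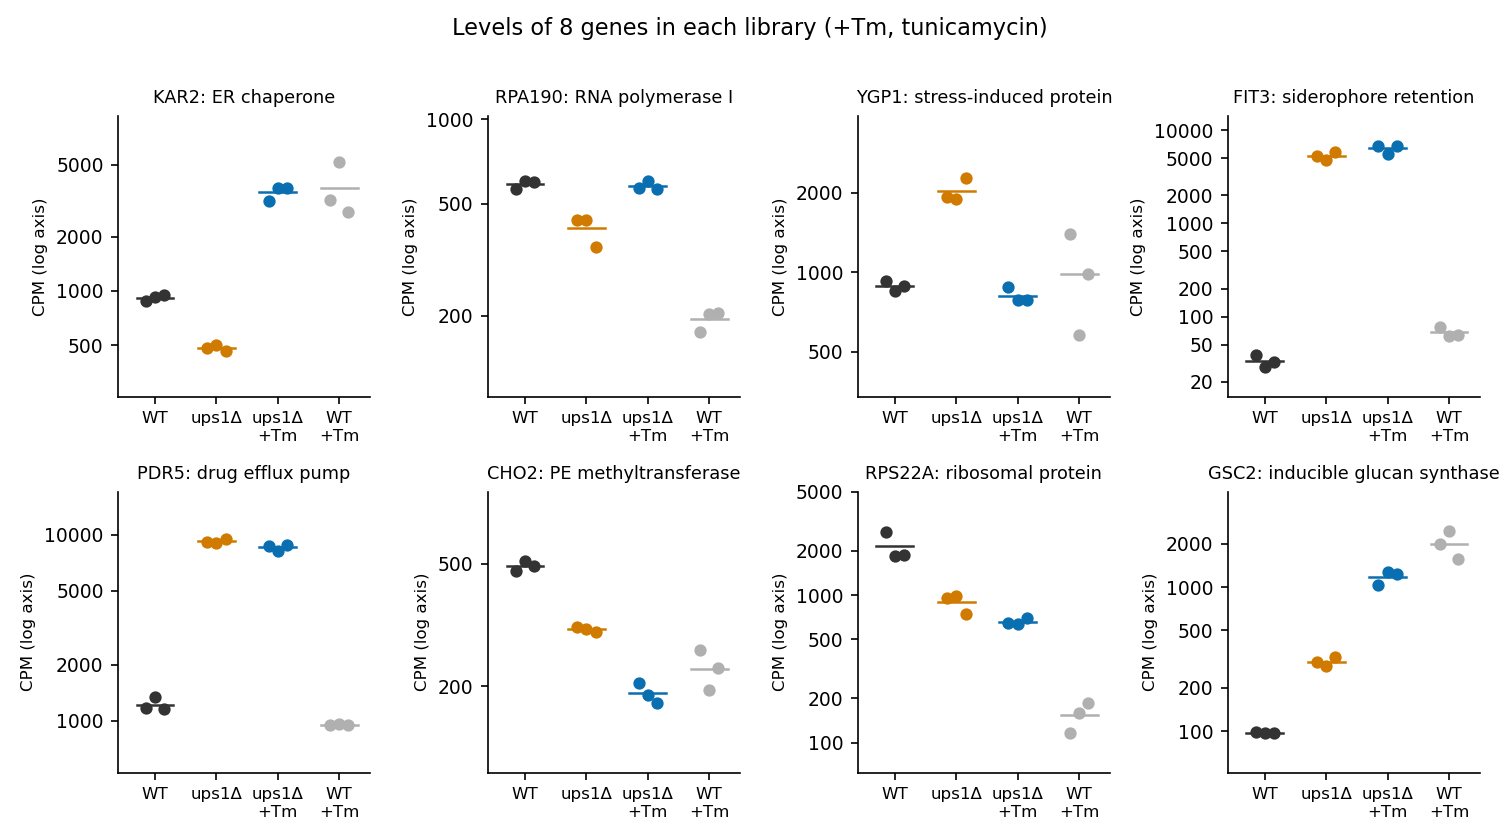
CPM on a log axis of 8 genes in each of the 12 libraries (points) with the group mean (line), for untreated wild-type (WT) and ups1Δ cells and for both with tunicamycin (+Tm). *RPA190* and *YGP1* in treated ups1Δ cells overlap untreated wild type, *KAR2* moves from below it to above it, *FIT3* and *PDR5* lie far above it with and without the drug, and *CHO2*, *RPS22A* and *GSC2* lie farther from wild type than without the drug.

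The mRNA of the UPR's transcription factor was also raised. *HAC1* was at 241, 243 and 282 CPM in wild-type cells, at 218, 213 and 224 CPM in untreated ups1Δ cells and at 662, 682 and 726 CPM in treated ups1Δ cells (1.43 ± 0.07, edgeR adjusted p = 4.5e-10). These counts cover all *HAC1* mRNA and do not tell the spliced from the unspliced form. *IRE1*, the sensor, was at 66.3, 87.2 and 74.8 CPM in wild-type and 99.2, 102 and 90.2 CPM in treated ups1Δ libraries, a smaller difference of 0.35 ± 0.09 (edgeR adjusted p = 0.0048). The groups do not overlap in either gene. Of the 4 UPR signalling genes listed, 2 were higher and 2 lower, or 2 higher and 0 lower when scaled by totals alone. The lower ones were the ligase gene *TRL1*, named after its values were seen, and *TPT1* (−0.38 ± 0.11). *TPT1* encodes a tRNA phosphotransferase acting after the ligase.

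Other steps of the secretory pathway did not move as one. In ER-associated degradation, 8 of 18 genes were higher and 3 lower, with a median of 0.13. Scaled by totals alone, 14 were higher and 2 lower (median 0.33). The ubiquitin ligase *HRD1* (0.78 ± 0.07) and its partners *USA1* (0.91 ± 0.09) and *DFM1* (0.78 ± 0.10) rose, and *CDC48*, the ATPase that pulls substrates out, stood at the wild-type level, with 1081, 1160 and 1135 CPM in wild-type and 1110, 1111 and 1109 CPM in treated ups1Δ cells. Of 19 genes for the COPII coat and its cargo receptors, which carry proteins out of the ER, 10 were higher and 3 lower (median 0.15). With scaling by totals alone these became 14 higher and 1 lower (median 0.35). Before the drug, 9 of these 19 had been lower than wild type (median −0.18). The cargo receptor *ERV29* was at 192, 171 and 179 CPM in wild-type cells and rose to 301, 298 and 336 CPM (0.78 ± 0.07). *SEC31*, a coat subunit, was at the wild-type level (0.03 ± 0.07), and the receptor *ERV14* was lower (−0.64 ± 0.10).

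The enzymes of N-glycosylation, the process that tunicamycin blocks, stayed mostly lower or came back to wild type. Of 28 genes, 13 were lower and 4 higher, and 10 stood at the wild-type level. Their median was −0.16, which became 0.04 with 8 higher and 9 lower when libraries were scaled by their totals alone. *ALG5*, which makes dolichol-phosphate glucose, was at 112, 93.0 and 93.0 CPM in wild-type cells, at 47.0, 46.1 and 37.2 CPM in untreated ups1Δ cells and at 42.4, 39.9 and 47.1 CPM in treated ups1Δ cells (−1.21 ± 0.10). It did not differ between treated and untreated ups1Δ cells beyond its error (−0.01, edgeR adjusted p = 0.96). *SWP1* and *WBP1*, subunits of the oligosaccharyltransferase, had been lower in untreated ups1Δ cells and stood at the wild-type level with the drug (−0.08 ± 0.07 and −0.15 ± 0.07). *ALG7*, whose product is the enzyme tunicamycin inhibits, was named after its values were seen. It was lower than wild type in untreated ups1Δ cells (−0.55) and at the wild-type level with the drug (−0.13). Among 20 genes for entry into the ER the median was −0.29, with 12 called lower and 4 called higher, or 6 each way when scaled by totals alone. *SSH1*, a second translocon, was lower (−0.70 ± 0.06), *SEC62* was higher (0.66 ± 0.06), and *SEC63*, which had been lower in untreated ups1Δ cells (−0.40), was at the wild-type level (0.06 ± 0.06).

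**Figure D2:**
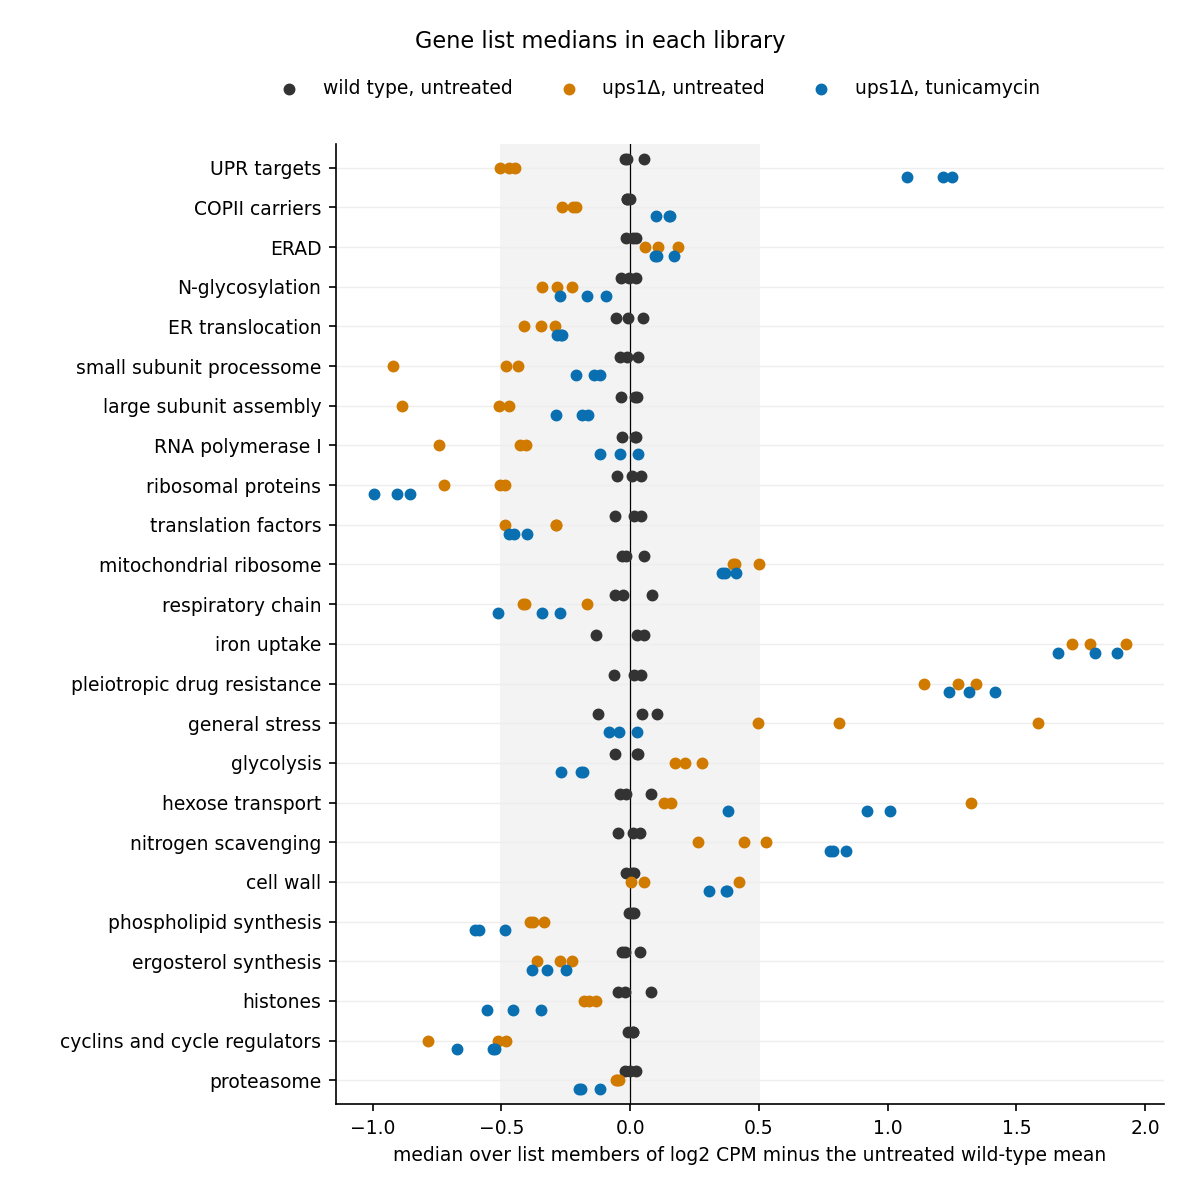
For each gene list (rows), the median over its tested members of log2 CPM minus the untreated wild-type mean of each gene, with 1 point for each of the 9 libraries of untreated wild-type, untreated ups1Δ and treated ups1Δ cells. Grey marks the zone within 0.5 of wild type. The treated ups1Δ libraries lie at 1.07 to 1.25 for UPR targets, within 0.12 of 0 for RNA polymerase I and within 0.08 of 0 for the general stress list, and at −0.996 to −0.85 for ribosomal proteins.

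The 2 arms of ribosome production separated. Assembly of a ribosome needs factors that fold and cut the rRNA, the RNA polymerase I that transcribes it, and the ribosomal proteins. In untreated ups1Δ cells, 110 of 118 assembly factors were called lower than wild type, with a median of −0.58. Between treated and untreated ups1Δ cells, where 27.1% of all genes were called and 15.2% were higher, 70 of the 118 were called higher. Leaving out treated replicate 1 or 2 lowered that count to 29 or 28, and leaving out untreated replicate 3 gave 79. In the treated mutant 85 of the 118 lay within 0.5 of wild type, 46 of them not called, and 65 were still called lower against 7 higher, with a median of −0.19. Among all genes 43.8% lay within 0.5 and 30.1% were called lower. The medians of its parts, −0.17 for the 54 genes of the small subunit processome and −0.21 for the 64 of the large subunit, became 0.03 and −0.01 when libraries were scaled by their totals alone, and the calls over both became 31 higher and 26 lower.

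Single factors show both outcomes. *NOP1*, the rRNA methyltransferase whose promoter is printed above, was at 1124, 1140 and 1109 CPM in wild-type cells, at 836, 834 and 595 CPM in untreated ups1Δ cells and at 750, 730.2 and 860 CPM in treated ups1Δ cells, so that it stayed under wild type (−0.53 ± 0.07). *NAN1*, a processome subunit, was at 336, 325 and 345 CPM in wild-type cells, at 255, 258 and 200 CPM in untreated ups1Δ cells and at 340, 362 and 325 CPM in treated ups1Δ cells, where the treated and wild-type groups overlap (0.03 ± 0.06). *NOP2*, an rRNA methyltransferase of the large subunit, was at 350, 391 and 400 CPM in wild-type cells, at 299, 308 and 242 CPM without and at 388, 367 and 369 CPM with the drug (−0.02 ± 0.07). *NOP56*, a core protein of the box C/D particles, stayed low, at 819, 810 and 802 CPM in wild-type cells against 581, 586 and 430 CPM without and 566, 547 and 564 CPM with the drug (−0.54 ± 0.06, edgeR adjusted p = 1.2e-06). *SNU13* (−0.64 ± 0.07), *EMG1* (−0.57 ± 0.07), *NIP7* (−0.95 ± 0.13), *LOC1* (−0.75 ± 0.16) and *CGR1* (−1.25 ± 0.25) were lower too, each with no overlap between the treated ups1Δ and wild-type libraries. Among these 5, none was called between treated and untreated ups1Δ cells.

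RNA polymerase I and its initiation factors followed the assembly factors. Of 15 genes, 10 were lower in untreated ups1Δ cells (median −0.49), and 7 stood at the wild-type level in treated ups1Δ cells, with 3 higher and 5 lower (median −0.02), or 6 higher and 2 lower when scaled by totals alone (median 0.18). The largest subunit, *RPA190*, was at 562, 604 and 595 CPM in wild-type cells, fell to 436, 439 and 351 CPM in untreated ups1Δ cells and was at 570, 600 and 566 CPM with the drug (−0.02 ± 0.06). The second largest, *RPA135*, was at 804, 846 and 853 CPM, then 603, 630 and 419 CPM, then 776, 756 and 768 CPM (−0.12 ± 0.06). The treated libraries of *RPA190* overlap wild type, and those of *RPA135* lie just under it. *RPA34* and *RPA49*, which form a dimer on the enzyme, remained lower (−0.85 ± 0.08 and −0.48 ± 0.06). Without replicate 3 of untreated ups1Δ, the medians of the untreated mutant against wild type were −0.44 for the processome, −0.48 for the large subunit and −0.40 for RNA polymerase I, and those of treated against untreated ups1Δ cells were 0.32, 0.27 and 0.27.

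The ribosomal proteins went the other way. Their median was −0.91 in the treated mutant, where 133 of 137 genes were called lower than wild type and 2 higher (−0.71 when scaled by totals alone). In untreated ups1Δ cells the median was −0.54, with 131 lower. Between treated and untreated ups1Δ cells 96 were called lower and 1 higher (11.9% of all genes were lower), with a median of −0.36 that lay between −0.44 and −0.25 under the alternatives. The 96 became 123 without untreated replicate 3 (median −0.44), and 46 and 52 without untreated replicates 1 and 2. Without treated replicates 1 and 2 it became 50 and 33, and with a replicate block 49. *RPS22A*, of the small subunit, was at 2688, 1839 and 1883 CPM in wild-type cells, at 951, 986 and 741 CPM in untreated ups1Δ cells and at 644, 639 and 695 CPM in treated ups1Δ cells (−1.70 ± 0.15, edgeR adjusted p = 5.3e-05). *RPL41A*, which encodes the smallest protein of the large subunit, was at 1551, 1075 and 1055 CPM in wild-type cells and at 342, 284 and 312 CPM in the treated mutant (−1.98 ± 0.17). *RPS10A* was lower as well (−1.61 ± 0.12). In these 3 genes each treated library lies under each untreated ups1Δ library, except that 1 *RPS10A* value of untreated ups1Δ, at 695 CPM, falls among the treated values.

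Only 4 of the 137 lay within 0.5 of wild type by their interval, *RPL7B*, *RPL15B*, *RPL9B* and *RPS14B*. *RPL7B* was at 279, 298 and 277 CPM in wild-type and 313, 279 and 305 CPM in treated ups1Δ cells (0.07 ± 0.06). The one ribosomal protein gene that was clearly higher, *RPS9A*, was named with *RPL9B* and *RPS14B* after its values were seen, and had a mean of 159 CPM in wild-type, 216 CPM in untreated and 316 CPM in treated ups1Δ cells (0.99). Most of these genes have a near-identical second copy, so the split of reads between the copies of a pair is uncertain. The translation factors were also mostly below wild type, with 25 of 30 lower and 2 higher (median −0.45). In untreated ups1Δ cells 22 were already lower and 2 higher (median −0.33). Between treated and untreated ups1Δ cells 5 were called lower and 1 higher, with a median of −0.10. Without untreated replicate 3 the 5 became 15 (median −0.18). Under the alternatives the median lay between −0.18 and 0.01 and the lower calls between 0 and 15. Whether this list fell further therefore depended on the libraries and settings used. *HYP2*, the usual gene for eIF5A, was at 859, 867 and 859 CPM in wild-type cells and at 313, 309 and 294 CPM in the treated mutant (−1.50 ± 0.06), and *ANB1*, its counterpart for low oxygen, was higher (1.27 ± 0.21). In treated wild-type cells, which entered no test here, the list medians were far lower still, at −3.06 to −2.66 for ribosomal proteins and −1.87 to −1.71 for translation factors.

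**Figure D3:**
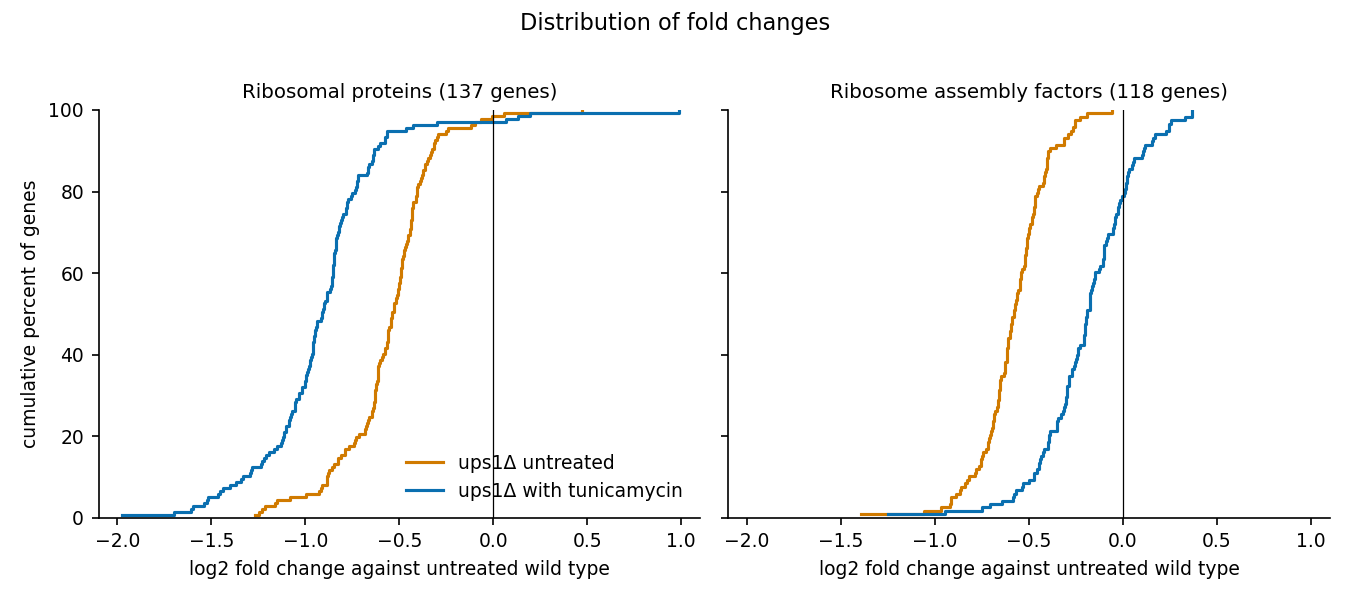
Cumulative percent of genes (vertical axis) by log2 fold change against untreated wild type (horizontal axis) for 137 ribosomal protein genes and 118 ribosome assembly factors, in untreated and in treated ups1Δ cells. The curve of the ribosomal proteins moves left with tunicamycin, from a median of −0.54 to −0.91, and that of the assembly factors moves right, from −0.58 to −0.19.

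TORC1 is the kinase complex that couples nutrients to ribosome production through the kinase Sch9, and its own mRNAs differed little in size. *KOG1* (0.05 ± 0.08) and *LST8* (0.06 ± 0.10), subunits of the complex, were at the wild-type level, while the kinase *TOR1* was lower (−0.33 ± 0.09) and *TOR2* (0.34 ± 0.08) and the subunit *TCO89* (0.31 ± 0.09) were higher. These 5 were named after their values were seen. *SCH9* was at 165, 164 and 177 CPM in wild-type cells, at 126, 140 and 149 CPM in untreated ups1Δ cells and at 173, 182 and 164 CPM with the drug. The treated libraries overlap wild type (0.04 ± 0.06) and lie above all untreated ups1Δ libraries (0.33, edgeR adjusted p = 0.02). Of the inhibitory SEACIT complex, *NPR2* (0.10 ± 0.10) and *IML1* (0.16 ± 0.08) were at the wild-type level and *NPR3* was slightly higher (0.26 ± 0.08). Of the 30 genes of this list, 13 were at the wild-type level, 15 were higher and 2 lower (median 0.18), or 24 higher when scaled by totals alone. The higher ones include *GLN3* and *GAT1*, activators of nitrogen-scavenging genes (0.94 ± 0.10 and 0.86 ± 0.09), and *STB3*, a repressor of ribosome genes (0.75 ± 0.09).

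The general stress list lay near wild type by its median, while its members were spread on both sides. These are genes of the Msn2 and Msn4 factors, heat shock and storage carbohydrates. In untreated ups1Δ cells 18 of 28 were higher than wild type (26.5% of all genes were) with a median of 1.08, which was 0.65 without replicate 3, and 10 were lower in treated than in untreated ups1Δ cells (median −1.01, or −0.56 with 15 lower without replicate 3). The 18 were 9 and 7 without wild-type replicates 1 and 2 and 10 without wild-type replicate 3, and the 10 were 5 without any one of the treated replicates. The treated mutant had a median of −0.08 against wild type, with 10 genes higher, 8 lower and 8 at the wild-type level, or a median of 0.12 with 11 higher and 5 lower when scaled by totals alone. *YGP1*, a secreted glycoprotein made on nutrient limitation, was at 924, 850 and 886 CPM in wild-type, at 1918, 1893 and 2281 CPM in untreated and at 877, 783 and 787 CPM in treated ups1Δ cells (−0.12 ± 0.07). *TPS1*, which makes trehalose phosphate, was at 440, 416 and 477 CPM, then 784, 684 and 1343 CPM, then 477, 480 and 488 CPM (0.12 ± 0.06). Both were called lower in treated than in untreated ups1Δ cells. The small heat shock gene *HSP26* stood above wild type, with 28.6, 20.6 and 26.1 CPM in wild-type and 319, 297 and 138 CPM in treated ups1Δ cells (3.32 ± 0.48), and *FMP48*, a kinase gene, lay below wild type (−2.42 ± 0.31).

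**Figure D4:**
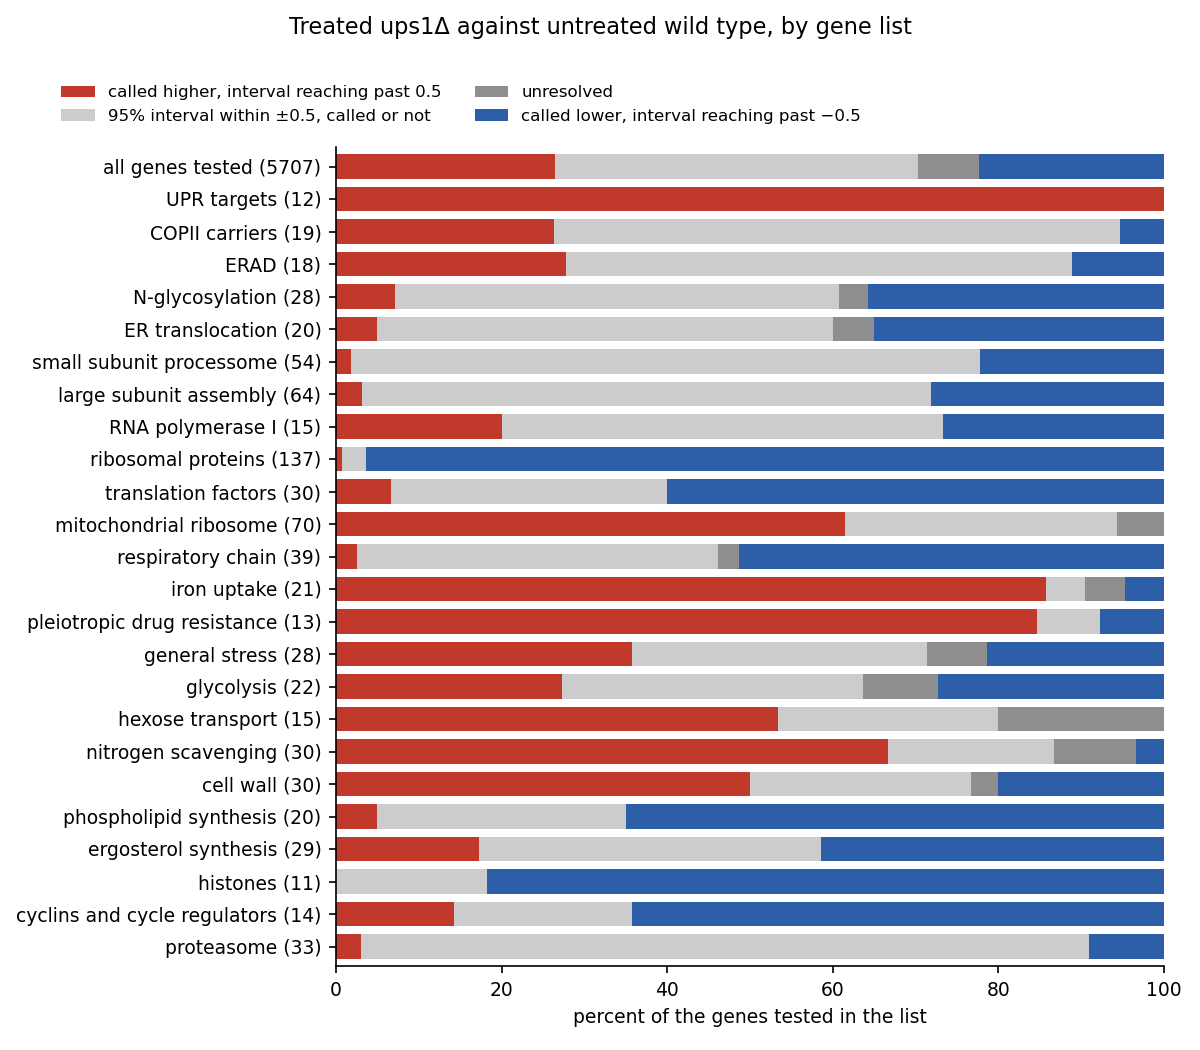
Share of the tested genes of each list (number in brackets) that were called higher or lower with a 95% interval reaching past 0.5 in treated ups1Δ against untreated wild-type cells, lay within 0.5 by that interval, or were unresolved. All 12 UPR targets are called higher, and of the 137 ribosomal proteins only 4 lie within 0.5.

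Most iron uptake genes stayed raised. These genes are switched on by Aft1 when iron-sulfur clusters, which are made in mitochondria, run short. Of 21 genes, 18 were higher than wild type in the treated mutant and 1 lower, with a median of 1.73. In untreated ups1Δ cells 19 were higher (median 1.88), and between treated and untreated cells 4 were higher and 1 lower (median −0.03). *FIT3*, a mannoprotein that retains siderophores in the wall and whose promoter is printed above, was at 39.0, 29.0 and 32.7 CPM in wild-type, at 5263, 4836 and 5839 CPM in untreated and at 6702, 5604 and 6785 CPM in treated ups1Δ cells (7.56 ± 0.11, edgeR adjusted p = 6.8e-14). *FIT2* was at 38.8, 31.1 and 25.7 CPM in wild-type and at 2097, 1703 and 1928 CPM in treated ups1Δ cells (5.91 ± 0.14), and *FRE5*, of the ferric reductase family, went from at most 1.33 CPM to at least 78.1 CPM (6.29 ± 0.39). Treated and untreated ups1Δ libraries overlap in *FIT3* and *FRE5*. In treated wild-type cells *FIT3* averaged 67.9 CPM and *FIT2* 29.3 CPM. The one member called lower was *FRE4*, of the ferric reductase family (−0.63 ± 0.25), and *FET4*, a low-affinity iron transporter, could be placed in no class (−0.81 ± 0.34); both were named after their values were seen. *ATX1*, a copper chaperone of the pathway, was raised in untreated ups1Δ cells (0.55) and at the wild-type level with the drug (−0.22 ± 0.12).

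Of 20 genes for iron use inside the cell 19 had enough counts, and 10 were higher and 6 lower. Scaled by totals alone, 12 were higher and 3 lower. *TIS11*, which destroys mRNAs of iron-using proteins, was at 34.1, 24.4 and 34.3 CPM in wild-type, at 250, 234 and 284 CPM in untreated and at 406, 387 and 364 CPM in treated ups1Δ cells (3.63 ± 0.10). *HMX1*, the heme oxygenase, went from 10.2, 10.4 and 10.4 CPM in wild-type to 62.2, 56.7 and 48.5 CPM (2.43 ± 0.14). *LSO1*, a small iron-responsive gene, was at least 104-fold higher. Each of these 3 was also higher in treated than in untreated ups1Δ cells, by 0.60, 1.13 and 0.72. *GRX3*, a regulator of Aft1, was at the wild-type level (0.13 ± 0.07).

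Drug efflux genes likewise did not return. Of 13 pleiotropic drug resistance genes, targets of Pdr1 and Pdr3, 11 were higher and 1 lower, with a median of 1.30 against 1.29 in untreated ups1Δ cells. *PDR5*, the main efflux pump, was at 1167, 1351 and 1156 CPM in wild-type, at 9192, 8979 and 9497 CPM in untreated and at 8727, 8194 and 8834 CPM in treated ups1Δ cells (2.81 ± 0.07, edgeR adjusted p = 5.0e-13). Between treated and untreated ups1Δ cells it differed by −0.10, which was not called (edgeR adjusted p = 0.29). *RSB1*, which exports sphingoid bases, was at 6.21, 5.57 and 6.22 CPM in wild-type and at 105, 95.6 and 101 CPM in treated ups1Δ cells (4.05 ± 0.14). *PDR1* itself was at the wild-type level (0.16 ± 0.07). *CIS1*, a Pdr3 target that acts when mitochondrial import is impaired, was at 5.54, 2.55 and 1.80 CPM in wild-type, at 52.9, 44.4 and 46.2 CPM in untreated and at 63.2, 66.7 and 53.3 CPM in treated ups1Δ cells (4.22 ± 0.30).

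Mitochondrial ribosomal proteins stayed raised. Of 70 genes 50 were higher and 16 at the wild-type level, with a median of 0.40 against 0.49 before the drug. *MRPL4*, of the large subunit, was at 46.6, 55.0 and 52.3 CPM in wild-type and at 90.5, 91.0 and 89.0 CPM in treated ups1Δ cells (0.81 ± 0.08). *RSM19*, of the small subunit, was at 33.7, 30.2 and 34.1 CPM and at 68.8, 66.5 and 74.7 CPM (1.09 ± 0.09). The nuclear genes of the respiratory chain were mostly lower instead, 24 of 39 against 2 higher (median −0.42). Scaled by totals alone, 17 were lower and 8 higher (median −0.23). *COX6*, of complex IV, was at 77.4, 69.4 and 70.4 CPM in wild-type and 29.9, 30.4 and 32.8 CPM in treated ups1Δ cells (−1.22 ± 0.09). Of 32 genes of the import machinery 15 were at the wild-type level, 9 higher and 7 lower (median −0.01), or 18 higher and 2 lower when scaled by totals alone (median 0.19). The outer membrane receptor *TOM70* (−0.04 ± 0.06) and the pore *TOM40* (−0.09 ± 0.06) were at the wild-type level, while *TIM8* was lower (−0.76 ± 0.11) and the chaperone *HSP78* higher (0.76 ± 0.06).

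In the citric acid cycle, 8 of 18 genes were higher, 2 lower and 8 at the wild-type level. Scaled by totals alone, 14 were higher and 1 lower. *IDH1*, a subunit of isocitrate dehydrogenase, was at 219, 241 and 220 CPM in wild-type, at 1124, 1175 and 1278 CPM in untreated and at 673, 649 and 732 CPM in treated ups1Δ cells, so it moved towards wild type but stayed above it (1.59 ± 0.07). *CIT2*, the peroxisomal citrate synthase that marks retrograde signalling from mitochondria, was at 213, 269 and 276 CPM in wild-type and 577, 596 and 604 CPM in treated ups1Δ cells (1.23 ± 0.08), with no called change between treated and untreated ups1Δ cells (0.09, edgeR adjusted p = 0.7). Of the contact sites between ER and mitochondria and the cristae junctions, 5 of 11 genes were higher, *MDM34* (0.73 ± 0.08) and *MIC12* (0.71 ± 0.10) the most. In this list 1 gene was lower, and scaling by totals alone gave 8 higher and 0 lower.

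Of 12 genes for cardiolipin and the Ups proteins, 4 were higher than wild type, 4 lower, *UPS1* among them, and 4 at the wild-type level. Scaled by totals alone, 7 were higher and 3 lower. *UPS2*, which carries phosphatidylserine, was at 63.2, 61.7 and 62.8 CPM in wild-type, at 86.8, 86.6 and 83.6 CPM in untreated and at 49.98, 53.1 and 65.2 CPM in treated ups1Δ cells (−0.16 ± 0.10). *MDM35*, the partner of both transfer proteins, was at 48.8, 39.4 and 43.3 CPM, then 65.3, 57.0 and 67.0 CPM, then 55.0, 47.8 and 42.1 CPM (0.14 ± 0.12). Both had been higher in untreated ups1Δ cells and overlapped wild type with the drug. *TAM41* (0.06 ± 0.09) and *CRD1* (0.12 ± 0.12) of cardiolipin synthesis were at the wild-type level, and *PGS1* was slightly higher (0.39 ± 0.11). *CLD1*, the phospholipase that starts cardiolipin remodelling, was at 2.88, 3.25 and 2.21 CPM in wild-type, at 10.5, 12.6 and 12.0 CPM in untreated and at 30.3, 34.9 and 26.2 CPM in treated ups1Δ cells (3.46 ± 0.25). *PSD1*, which makes phosphatidylethanolamine in mitochondria, fell from 255, 258 and 280 CPM through 156, 152 and 167 CPM to 86.1, 80.2 and 88.2 CPM (−1.65 ± 0.07).

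Phospholipid synthesis elsewhere lay farther from wild type with the drug. The median of its 20 genes was −0.57 against −0.33 in untreated ups1Δ cells. Called lower than wild type were 17 and called higher 1, or 12 and 2 when scaled by totals alone (median −0.37). Between treated and untreated ups1Δ cells 9 were called lower (11.9% of all genes were), or 8 when scaled by totals alone. *CHO2*, the first methyltransferase on the way from phosphatidylethanolamine to phosphatidylcholine, was at 472, 509 and 493 CPM in wild-type, at 310, 307 and 301 CPM in untreated and at 205, 187 and 176 CPM in treated ups1Δ cells (−1.38 ± 0.07). *OPI3*, the enzyme after it, was at 699, 666 and 688 CPM, then 497, 487 and 526 CPM, then 406, 418 and 396 CPM (−0.75 ± 0.06). The choline transporter *HNM1* (−1.92 ± 0.08) and the inositol transporter *ITR1* (−1.61 ± 0.06) fell in the same steps, with no overlap between the 3 groups in any of these 4 genes. *INO1*, which makes inositol phosphate and was named after its values were seen, was the one member called higher (0.67), having been lower in untreated ups1Δ cells (−0.97). *NEM1*, which activates the phosphatidic acid phosphatase, was slightly lower (−0.30 ± 0.11) and its partner *SPO7* at the wild-type level (−0.16 ± 0.11). Of 29 ergosterol genes 18 were lower and 6 higher, or 12 lower and 10 higher when scaled by totals alone. *ERG11*, the target of azole drugs, was at 1001, 1075 and 977 CPM in wild-type and 427, 473 and 508 CPM in treated ups1Δ cells (−1.12 ± 0.07).

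Cell wall genes were mostly raised. Of 30 genes, 19 were higher and 8 lower than wild type (median 0.34), and 11 were higher and 6 lower in treated than in untreated ups1Δ cells. Without untreated replicate 3 the 11 became 17, and without treated replicate 2 it became 6. *GSC2*, the inducible glucan synthase, was at 97.8, 96.5 and 97.1 CPM in wild-type, at 301, 282 and 325 CPM in untreated and at 1040, 1269 and 1228 CPM in treated ups1Δ cells (3.60 ± 0.08, edgeR adjusted p = 7.0e-14). *YPS3*, a wall protease, was at 34.1, 32.9 and 30.5 CPM, then 38.5, 40.7 and 48.2 CPM, then 260, 375 and 346 CPM (3.33 ± 0.16). *FKS1*, the constitutive glucan synthase, and *CHS3*, a chitin synthase, had been lower in untreated ups1Δ cells and were at the wild-type level with the drug (−0.13 ± 0.06 and −0.17 ± 0.08).

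Nutrient genes remained altered in several directions. Of 31 genes for nitrogen scavenging and the Ehrlich pathway 30 had enough counts, of which 23 were higher and 1 lower, with a median of 0.79 against 0.45 in untreated ups1Δ cells. *MEP1*, an ammonium transporter, was at 8.20, 8.58 and 9.22 CPM in wild-type, at 15.4, 19.6 and 19.1 CPM in untreated and at 48.4, 51.1 and 58.6 CPM in treated ups1Δ cells (2.59 ± 0.15). *GDH3*, a glutamate dehydrogenase (3.19 ± 0.15), and *DUR3*, the urea transporter (2.77 ± 0.31), were higher too. Of 20 hexose transport genes 15 had enough counts and 8 were higher (median 0.71), *HXT5* going from at most 2.32 CPM to 63.2, 62.4 and 37.2 CPM (5.01 ± 0.47). Before the drug this list had a median of 0.88, which was 0.10 without replicate 3 of untreated ups1Δ. Autophagy genes were higher in 10 of 18 cases (median 0.34), and 10 had also been higher in untreated ups1Δ cells (median 0.51). Among those higher with the drug, *ATG17* was at 19.7, 18.3 and 18.4 CPM in wild-type and 41.3, 49.6 and 47.1 CPM in treated ups1Δ cells (1.29 ± 0.12). The vacuolar protease *PRB1* was at 199, 197 and 215 CPM in wild-type and at 1133, 1252 and 1153 CPM in treated ups1Δ cells (2.53 ± 0.06). Of its list of 12 vacuolar hydrolases 6 were higher, 2 lower and 4 at the wild-type level, or 10 higher and 1 lower when scaled by totals alone. In untreated ups1Δ cells 7 of the 12 had been higher.

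The balance of glycolysis differed with and without the drug. In untreated ups1Δ cells 11 of the 22 genes were higher (median 0.26), whereas in the treated mutant 12 were lower and 6 higher (median −0.22), or 7 lower and 8 higher when scaled by totals alone (median −0.02). *PGK1*, often used as a reference gene, was at 7060, 7441 and 7415 CPM in wild-type, at 8909, 9053 and 9151 CPM in untreated and at 6721, 6017 and 6378 CPM in treated ups1Δ cells (−0.20 ± 0.06). *ACT1*, also a reference gene, stood at the wild-type level (−0.10 ± 0.06). *ENO1*, an enolase, was above wild type in both, at 1819, 1879 and 2053 CPM in wild-type and 4193, 4106 and 3725 CPM in treated ups1Δ cells (1.06 ± 0.07). *HXK2* was at the wild-type level (−0.02 ± 0.06).

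In amino acid synthesis 14 of 40 genes were higher, 12 lower and 13 at the wild-type level, or 19 higher and 7 lower when scaled by totals alone. *HIS4* was at 607, 665 and 656 CPM in wild-type, at 1154, 1103 and 992 CPM in untreated and at 676, 557 and 745 CPM in treated ups1Δ cells, so that treated and wild-type libraries overlap (0.03 ± 0.09). *HOM2*, of the threonine and methionine branch, returned as well (−0.05 ± 0.07). *LEU1*, of leucine synthesis, fell further, from 1267, 1503 and 1410 CPM through 727, 834 and 617 CPM to 365, 430 and 445 CPM (−1.75 ± 0.08). Of 26 sulfate and methionine genes with enough counts, 9 were higher and 11 lower than wild type (median 0.10). When scaled by totals alone, 11 were higher and 9 lower. Between treated and untreated ups1Δ cells 7 were higher and 5 lower (median 0.19). Among the lower ones, the methionine synthase *MET6* (−2.14 ± 0.07) and *SAM2*, which makes S-adenosylmethionine (−2.06 ± 0.07), took the same course as *LEU1*. These 2 belong to a pathway in which the strains differ at *MET17*, and *LYS20* (1.35 ± 0.08) and *LYS1* (0.74 ± 0.10) to one in which they differ at *LYS2*. Marker and genotype cannot be told apart there. Of 33 proteasome genes, 19 were lower and 1 higher, but 29 lay within 0.5 of wild type (median −0.18). When scaled by totals alone, 11 were higher and 3 lower (median 0.02).

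Genes of the cell cycle stayed low. The median of 14 cyclins and cycle regulators was −0.56 with and without the drug, and in the treated mutant 10 were called lower and 2 higher. *CLB1*, a mitotic cyclin, was at 125, 119 and 125 CPM in wild-type, at 46.5, 53.7 and 38.8 CPM in untreated and at 52.4, 47.2 and 41.9 CPM in treated ups1Δ cells (−1.38 ± 0.09). *FAR1*, which also serves in mating arrest, was lower (−1.61 ± 0.08). The G1 cyclin *CLN2*, named after its values were seen, had a mean of 201 CPM in wild-type, 100 CPM in untreated and 175 CPM in treated ups1Δ cells. Histones were close to wild type in untreated ups1Δ cells, with 2 of 11 called lower (4 without replicate 3), and 10 of 11 were lower in treated ups1Δ cells (median −0.45). *HTA2*, encoding histone H2A, was at 795, 660 and 636 CPM in wild-type, at 450, 438 and 386 CPM in untreated and at 302, 250 and 229 CPM in treated ups1Δ cells (−1.42 ± 0.11). Fewer cells in one phase and less RNA per cell cannot be told apart in bulk samples.

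Many of the largest changes lay in the mating-type and marker genes, though the highest member of the iron use list also reached 9.45. Of the 10 largest increases, *MET17* (at least 752-fold), *LYS2* (at least 450-fold), *MF(ALPHA)1* and *MF(ALPHA)2* (the alpha pheromone genes), *MATALPHA1* and its silent copy *HMLALPHA1* were each near or at 0 counts in wild-type cells and present in ups1Δ cells with and without the drug. The 2 copies have identical values, so their reads cannot be assigned to one of them. *YHR214C-C* and *YOR343W-A* also had 0 counts in wild-type cells. The second was at 27.9, 20.4 and 23.95 CPM in treated ups1Δ cells but at most 1.96 CPM in untreated ones. Of the 10 largest decreases, 9 were a-specific or MATa genes, such as *MFA2*, *AGA2*, *STE2* and *BAR1*, and the remaining one was *UPS1*. All 7 a-specific genes were lower and all 5 alpha-specific genes higher, and 12 of 18 pheromone response genes common to both types were lower, with *AGA1* at −1.47 ± 0.08. *STE3*, an alpha-specific gene that encodes a pheromone receptor, was lower in treated than in untreated ups1Δ cells (−0.37, edgeR adjusted p = 0.005), as were all 5 genes of its list. *HIS3* and *TRP1* were at the wild-type level, *ADE2* was lower (−0.58 ± 0.07), and *LEU2* and *URA3* had no counts in any library.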

How the data were processed

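Poly(A)-selected RNA was sequenced by the authors from 12 yeast cultures. Expected counts per gene, made by the authors with kallisto 0.45.0 for sacCer3, were deposited as whole numbers, without normalization; whether strand was used is not given in the sources used here. Their 4 tables of DESeq2 comparisons hold normalized counts, fold changes and p-values and were not used. The table has 7110 features, 6065 with an R64 gene. Total counts were 4964705 to 5684108 per library in untreated wild-type, 4729074 to 5003994 in untreated ups1Δ, 4908357 to 7101983 in treated ups1Δ and 4650828 to 4778960 in treated wild-type cells, so 3 counts equal 0.417 to 0.696 CPM; such limits cover counting error only.

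Each comparison used its own 6 libraries in edgeR 4.0.16 (R 4.3.3): filterByExpr, TMM, robust quasi-likelihood F test, Benjamini-Hochberg adjustment at 0.05, with Wald SE and 95% intervals. CPM came from one TMM scaling of all 12 libraries. The 42 gene lists (1088 genes), the members and the rule for naming genes were chosen with earlier results of these data known. The rule named the 10 largest called changes each way with no overlap and a mean of at least 10 CPM in one group, per list up to 3 called genes of largest change and 2 most abundant genes at the wild-type level, genes of the study, and all mating-type and marker genes. Replicate numbers did not pair the samples of the main comparison: correlations of deviations between same-numbered wild-type and treated ups1Δ libraries were −0.005 to −0.099. Between wild-type and untreated ups1Δ libraries they were −0.001 to 0.116 for the same number and −0.130 to 0.075 for other numbers. Between untreated and treated ups1Δ libraries of the same number they were −0.059 to −0.227. The steps were run on simulated counts in which few genes changed, in both directions. That run did not test the scaling under changes as broad as those seen here. Alternatives were DESeq2 1.42.0, other size factors, filters, thresholds, bands, one fit of 12 libraries, a replicate block and leaving out each library.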

Additional observations from a re-analysis of the deposited data

Results flagged for a closer look

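The libraries of treated wild-type cells entered no comparison here, and 3 gene lists lay in them at least 1 on the log2 scale beyond all 9 other libraries. The median of the ribosomal proteins over the untreated wild-type mean was −2.73 (range −3.06 to −2.66), with −0.996 to −0.85 in treated ups1Δ cells. The median of the translation factors was −1.75 (−1.87 to −1.71), with −0.47 to −0.40 in treated ups1Δ cells. The sulfate and methionine genes lay the other way, at 2.29 (1.39 to 2.33), with 0.01 to 0.19 in treated ups1Δ cells, and the 2 strains differ at *MET17* in that pathway. The difference between the genotypes was not tested.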

How the results depend on the processing

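The count of 3585 genes between treated ups1Δ and untreated wild-type cells ranged from 3198 to 3599 when each library was left out, and was 685 where the log2 fold change had also to reach 1 in size. Scaling by library totals alone moved the median of all genes from 0.02 to 0.22 and the share of lower calls from 47.9% to 27.7% (2801 higher, 1071 lower). Under it *CDC48* (0.18), *NOP2* (0.17), *RPA190* (0.18), *ERG3* (0.15), *ATP1* (0.16), *LPD1* (0.15), *TOM70* (0.16), *HXK2* (0.18) and *RPN2* (0.16), none called in the report, were called higher. Of 2822 results for 219 named genes under 13 alternatives, 2733 kept their direction and side of the threshold, 67 became called, 13 lost their call and these 9 turned. The 1702 genes at the wild-type level became 1647 to 1832 without one library, 962 with a band of 0.3, and the 809 called genes of the lists 760 to 813. Untreated ups1Δ against wild type gave 2978 genes, 2326 to 2989 without one library, 1928 at an adjusted p under 0.01 and 475 at the larger fold change. Treated against untreated ups1Δ cells gave 1546 genes, 728 to 1997 without one library (897 without treated replicate 1, 728 without treated replicate 2, 1015 without untreated replicate 1, 1997 without untreated replicate 3), 700 at an adjusted p under 0.01 and 193 at the larger fold change. In that comparison library totals alone moved the share of lower calls from 44.0% to 22.5%. With a replicate block the counts of the 3 comparisons were 3509, 3012 and 1138, and the replicate numbers did not pair the samples of the first. DESeq2 gave 3160, 2620 and 1463 genes. The limits are 3 libraries a group.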

Other observations

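Outside the lists, genes named here were chosen after their values were seen. *IMD2*, an IMP dehydrogenase gene controlled by GTP levels, had a mean of 253 CPM in wild-type, 65.5 CPM in untreated and 21.2 CPM in treated ups1Δ cells (log2 fold change −3.59 against wild type). *BIO2*, the iron-sulfur enzyme that makes biotin, followed the same order at 103, 30.8 and 18.7 CPM (−2.45). *YHB1*, the flavohemoglobin that removes nitric oxide, was at 452, 318 and 94.5 CPM (−2.26), and *UTR2*, a wall glycosidase, at 847, 367 and 246 CPM (−1.79). Each was farther from wild type in treated than in untreated ups1Δ cells.

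Other genes stood as high with the drug as without it. *TMT1*, a methyltransferase gene, had a mean of 37.0 CPM in wild-type, 224 CPM in untreated and 222 CPM in treated ups1Δ cells, and *XBP1*, a transcriptional repressor of stressed cells, 16.7, 122 and 106 CPM. *GTO3*, an omega-class glutathione transferase, was at 2.80, 62.1 and 67.6 CPM. *NCW2*, a cell wall gene, differed from these, with 78.6 and 100 CPM without the drug in wild-type and ups1Δ cells and 578 CPM in treated ups1Δ cells.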
